A study of Homo sapiens with 20 samples.

Results

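Transcript levels were examined for 10 genes of gemcitabine and platinum response by RNA sequencing of 20 human cell lines, all long established in culture from biliary tract cancers. The genes were SLC29A1, SLC28A3, DCK, CMPK1, CDA, DCTD, NT5C2, RRM1, RRM2 and ERCC1. They were chosen by symbol, each matched 1 entry of the deposited count table, and together they make up 10 of its 24222 entries. Each line was sequenced once, so lines serve as replicates and each standard deviation is over lines. Nothing was treated: the lines were grown in 1 common medium, and poly(A) RNA was sequenced with a stranded kit.

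By anatomical site the labels give 7 Gallbladder lines (Mz-ChA-2, G415, OCUG-1, NOZ, TGBC2TKB, TGBC14TKB and SNU-308) and 5 Extrahepatic bile duct lines (EGI-1, Sk-ChA-1, SNU-1196, SNU-245 and TFK-1). A further 4 lines were Intrahepatic (HuCCT1, HuH28, SNU-1079 and TKKK) and 3 were Ampullary, from the ampulla of Vater (SNU-478, SNU-869 and TGBC18TKB). OZ carries both bile duct labels and stayed out of the site tests, leaving 19 lines. Primary tumours gave 13 lines, and the 7 metastatic lines were taken from ascites (6) or a metastasis in the liver (1). The lines came from KCLB (6), RIKEN (6), HSRRB (4), DSMZ (2) and Zurich (2). No label names a sequencing batch. Mutation status and drug sensitivity were not analysed here, so the values below are transcript levels and carry no measure of response.

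Gemcitabine is a deoxycytidine analogue that enters cells through nucleoside transporters, among them the equilibrative carrier SLC29A1 and the concentrative carrier SLC28A3. DCK adds the first phosphate, CMPK1 the next one, and the di- and triphosphates then act: the diphosphate inhibits ribonucleotide reductase (RRM1 and RRM2) and the triphosphate is built into DNA. CDA deaminates the drug, DCTD deaminates its monophosphate, and cytosolic 5'-nucleotidases such as NT5C2 remove phosphate from nucleoside monophosphates. Cisplatin, its usual partner in biliary tract cancer, forms DNA adducts and crosslinks, which ERCC1 and its partner ERCC4 help to cut out.

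Levels are counts per M counts (CPM; M, mega) of the library size after TMM scaling. CPM is not corrected for transcript length, so levels are compared between lines and not between genes. Total counts per line lay between 10.47 M and 15.41 M. The floor was set at 3 counts, and single values carry an exact Poisson 95% interval; both cover counting error only. The biliary label was checked on 6 epithelial keratins and adhesion genes. KRT8 and KRT18 were at or above 35.1 CPM in all lines, while KRT19 was only 1.04 CPM in HuH28 (median of the lines 1420). KRT7 was under 1 CPM in Mz-ChA-2, EPCAM in HuH28, and CDH1 in OCUG-1 and G415. The 6 markers summed to 197 CPM in HuH28 and 13300 CPM in SNU-245. Of 6 leukocyte markers 2 were under 1 CPM in all 20 lines, CD3E among them, and PTPRC was under it in 19. CD68, which is not confined to leukocytes, was between 10.3 CPM (TKKK) and 443 CPM (G415), and CD14 reached 13.2 CPM. The 6 markers summed to 12.7 CPM in Mz-ChA-2 and 444 CPM in G415 (median 51.1), and their part in the results was not tested. Hepatocyte markers summed to 5270 CPM in Mz-ChA-2 (median of the lines 50), and fibroblast markers to 9030 CPM in HuH28 (median 84.5). For endothelial markers the highest sum was 102 CPM in G415 (median 1.87).

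Promoter windows are shown for the pair of genes that varied together, RRM1 and RRM2, and for DCK and CDA, which act on the drug in opposite directions and varied by very different amounts. Each runs from 250 bases before to 50 bases after a RefSeq transcript start, on build GRCh38.p14 and on the plus strand, and 9 of the 10 genes had such an entry. RRM1 lies at chr11:4094435-4094734, RRM2 at chr2:10122489-10122788 (1 of its 2 starts), DCK at chr4:70993399-70993698 and CDA at chr1:20588847-20589146. Capitals mark matches, on either strand, to the CCAAT box (CCAAT), the GC box (GGGCGG), the E2F sites TTTCCCGC and GCGCCAAA, and the TATA box (TATAAA).
RRM1: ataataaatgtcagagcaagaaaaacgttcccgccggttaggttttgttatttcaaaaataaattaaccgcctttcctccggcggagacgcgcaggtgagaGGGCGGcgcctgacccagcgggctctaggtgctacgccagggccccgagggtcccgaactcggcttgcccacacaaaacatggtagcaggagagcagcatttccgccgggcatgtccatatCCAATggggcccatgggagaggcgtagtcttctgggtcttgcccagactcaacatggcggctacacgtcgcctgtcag
RRM2: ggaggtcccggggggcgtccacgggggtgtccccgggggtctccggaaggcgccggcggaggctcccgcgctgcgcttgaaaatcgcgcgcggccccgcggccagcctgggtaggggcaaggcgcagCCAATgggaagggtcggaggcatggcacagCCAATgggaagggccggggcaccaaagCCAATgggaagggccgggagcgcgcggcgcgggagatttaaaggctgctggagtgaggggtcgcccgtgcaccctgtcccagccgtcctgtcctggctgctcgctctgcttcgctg
DCK: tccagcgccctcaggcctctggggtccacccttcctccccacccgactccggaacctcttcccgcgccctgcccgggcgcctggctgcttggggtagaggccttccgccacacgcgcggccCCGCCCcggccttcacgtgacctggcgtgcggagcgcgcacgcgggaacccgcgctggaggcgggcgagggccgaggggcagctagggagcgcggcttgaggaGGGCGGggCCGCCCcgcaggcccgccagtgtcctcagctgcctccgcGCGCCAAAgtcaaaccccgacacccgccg
CDA: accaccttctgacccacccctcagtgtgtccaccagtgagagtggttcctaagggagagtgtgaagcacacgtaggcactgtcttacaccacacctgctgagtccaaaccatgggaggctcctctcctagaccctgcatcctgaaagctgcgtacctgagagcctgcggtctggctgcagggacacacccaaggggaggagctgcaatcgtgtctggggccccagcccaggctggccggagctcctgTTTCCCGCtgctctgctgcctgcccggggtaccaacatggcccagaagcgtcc
The RRM2 window held 3 CCAAT boxes, starting 123, 93 and 66 bases before the transcript start. The RRM1 window held 1 CCAAT box, 28 bases before the start, and 1 GC box at 149 bases. In DCK there were 3 GC boxes and, just past the start, 1 GCGCCAAA, and in CDA 1 TTTCCCGC that spans the start. Among 35116 RefSeq promoter windows of the same length, 34.6% held a CCAAT box, 45% a GC box, 1.6% TTTCCCGC, 0.7% GCGCCAAA and 11.5% a TATA box. The CDA window had 8 CpG dinucleotides, against 37 in DCK, 31 in RRM2 and 21 in RRM1. These matches describe the letters only, and no binding or methylation was measured.

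The 10 genes differed widely in how much they varied between lines. SLC28A3 and CDA had standard deviations of 3.08 and 2.92 on the log2 CPM scale, larger than 96% and 94.6% of the 16615 genes tested, whose median was 0.90. SLC29A1 (1.09), RRM2 (1.08) and RRM1 (0.95) lay near that median. ERCC1 (0.62), CMPK1 (0.58), NT5C2 (0.57), DCK (0.55) and DCTD (0.53) varied less than it, with between 15% and 26.4% of genes varying less still. All 10 genes passed the filter on low counts, and 8 of them were above 10 CPM in every line. The plot of the 10 genes by site shows every line.

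**Figure D1:**
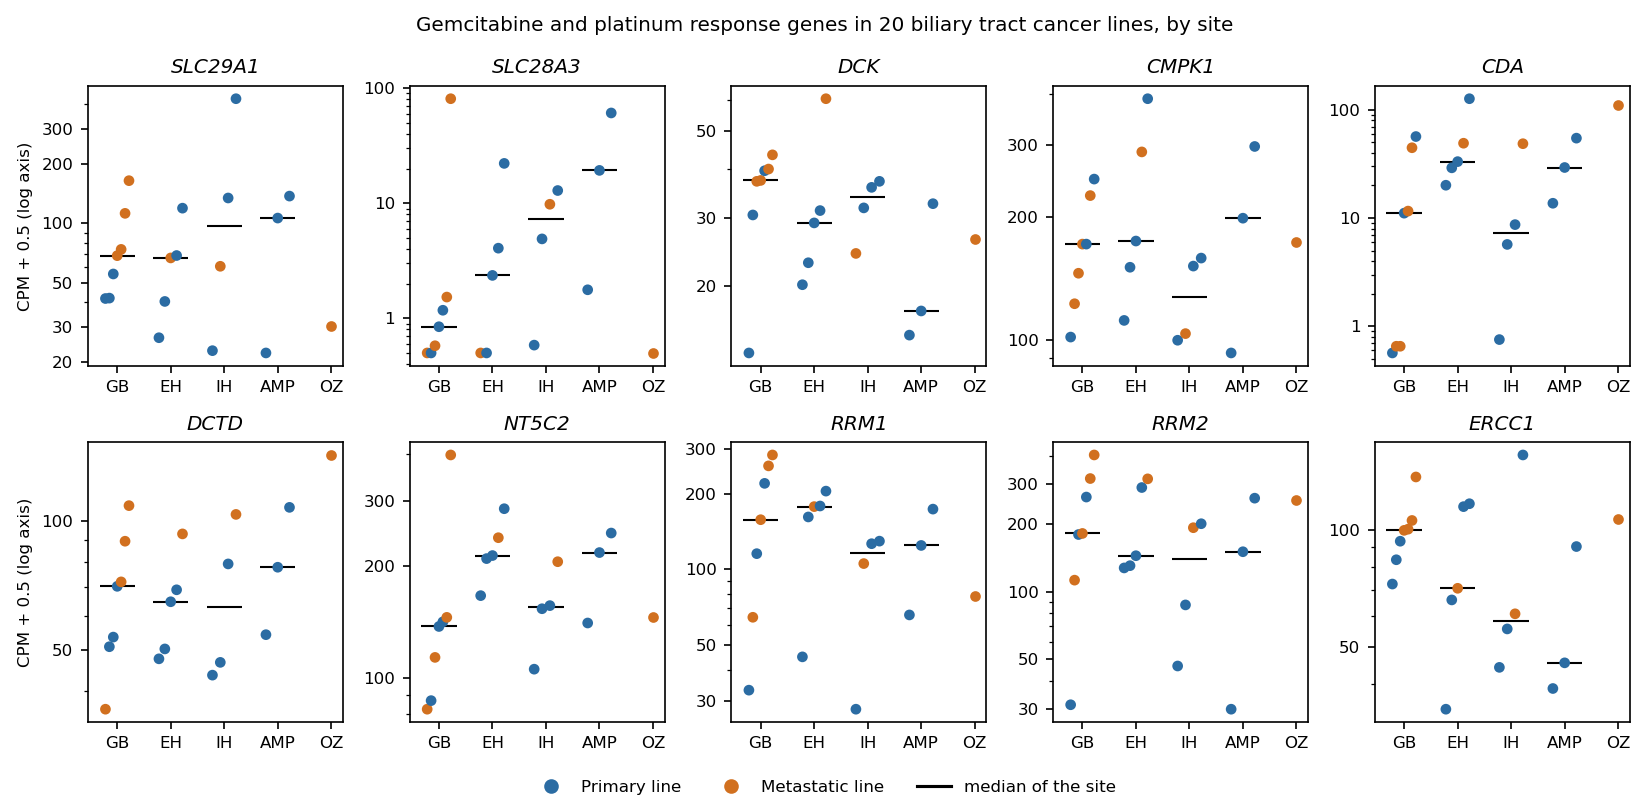
Level of each of the 10 genes (CPM + 0.5, log axis) in every line, by site: GB Gallbladder (7 lines), EH Extrahepatic (5), IH Intrahepatic (4), AMP Ampullary (3) and OZ, which carries both bile duct labels. Each point is 1 line, coloured by origin, and the bar is the median of the site; within each gene the sites overlap, and SLC28A3 and CDA have the widest range.

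Of the uptake genes, SLC29A1, the broadly expressed equilibrative nucleoside transporter, was read in every line. Among Gallbladder lines it ran from 41.3 (SNU-308) through a median of 68.3 to 164 CPM (G415). Extrahepatic lines had 119 CPM in SNU-1196, 68.4 in EGI-1, 66.5 in Sk-ChA-1, 39.9 in SNU-245 and 26.0 in TFK-1. In the Intrahepatic lines it was 426 CPM in SNU-1079, 134 in HuH28, 60.3 in HuCCT1 and 22.3 in TKKK. The one line that stood apart was SNU-1079, 2.60 times the next line, G415. Ampullary lines had 137 CPM in SNU-869, 106 in SNU-478 and 21.7 in TGBC18TKB, the lowest of the 20, and OZ had 29.9. TGBC18TKB, TKKK (22.3), TFK-1 (26.0) and OZ (29.9) formed the low end, and they came from 3 different sites and from OZ.

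SLC28A3, the concentrative transporter that carries both purine and pyrimidine nucleosides, was close to absent in many lines and high in a few. It had 0 counts in NOZ, OZ, Sk-ChA-1, SNU-1196 and SNU-308, and OZ had the highest floor of these 5 lines (3 counts, 0.250 CPM), with an exact Poisson upper limit of 0.307 CPM. A further 4 lines were below 1 CPM, among them Mz-ChA-2 and SNU-1079 with 1 count each. At the other end OCUG-1 had 80.5 CPM, SNU-478 60.4, SNU-245 21.7, SNU-869 18.8 and TKKK 12.4. These 5 lines came from all 4 sites. The median over the lines was 1.15 CPM. The entry in the table is a non-coding RefSeq transcript of the gene (NR_037638), so its counts stand for the locus as the authors counted it and not for a named protein-coding isoform.

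The other transporters were taken from a list of 9. SLC28A1 and SLC28A2, the other concentrative carriers, were below 1 CPM in 18 and in all 20 lines. SLC29A2, a second equilibrative carrier, ran from 0.864 CPM in HuH28 to 176 in TKKK, with a median of 63.8. TKKK thus had the second lowest SLC29A1 and the highest SLC29A2. SLC29A4, a monoamine carrier of the same family, peaked in SNU-1079 (64.0 CPM, median of the lines 2.65), as did the exporter ABCC4 (233 CPM, median 30.8).

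Of the activating enzymes, DCK, the kinase that takes the first and usually limiting step, kept within a narrow range. It ran from 13 (TGBC2TKB) through a median of 36.9 to 43.0 CPM (G415) in Gallbladder lines. Extrahepatic lines had 60.1 CPM in Sk-ChA-1, 30.8 in TFK-1, 28.6 in SNU-1196, 22.5 in EGI-1 and 19.7 in SNU-245. Intrahepatic lines had 36.7 CPM in TKKK, 35.4 in HuH28, 31.3 in SNU-1079 and 23.8 in HuCCT1. Ampullary lines had 32.1 CPM in SNU-869, 16.8 in TGBC18TKB and 14.5 in SNU-478, and OZ had 26.0. The 3 lowest lines were thus TGBC2TKB, SNU-478 and TGBC18TKB, and the highest, Sk-ChA-1, was 4.63 times the lowest. CMPK1, the UMP/CMP kinase of the next step, ranged from 92.3 CPM in TGBC18TKB through a median of 164 to 389 in TFK-1, a ratio of 4.21. TGBC18TKB therefore had the lowest level of the 20 lines for SLC29A1 and CMPK1 and the third lowest for DCK.

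Of the inactivating enzymes, CDA, cytidine deaminase, separated 4 lines from the other 16. SNU-308 had 1 count (0.0681 CPM, interval 0.00172 to 0.379), OCUG-1 and Mz-ChA-2 2 counts each (0.155 CPM) and SNU-1079 3 counts (0.255 CPM, interval 0.0525 to 0.744). The next lowest line, TKKK, had 5.21 CPM, or 62 counts. So 3 of the 7 Gallbladder lines and 1 of the 4 Intrahepatic lines were at or under the floor, and none of the 5 Extrahepatic or 3 Ampullary lines was. In a bulk library, transcripts in fewer of the cells and less RNA per cell cannot be told apart.

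Above the floor CDA spread over a wide range. Extrahepatic lines had 126 CPM in EGI-1, the highest of the 20, 48.6 in Sk-ChA-1, 32.7 in TFK-1, 28.6 in SNU-1196 and 19.6 in SNU-245. Ampullary lines had 54.2 in TGBC18TKB, 28.8 in SNU-478 and 13.2 in SNU-869, and OZ had 109. Of the Intrahepatic lines HuCCT1 had 48.1, HuH28 8.20 and TKKK 5.21 CPM. Gallbladder lines reached 56.1 CPM in TGBC2TKB and 44.1 in NOZ, with 11.1 in G415 and 10.6 in TGBC14TKB. The site medians were 32.7 CPM (Extrahepatic), 28.8 (Ampullary), 10.6 (Gallbladder) and 6.71 (Intrahepatic), with ranges that overlapped in every pair of sites.

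**Figure D2:**
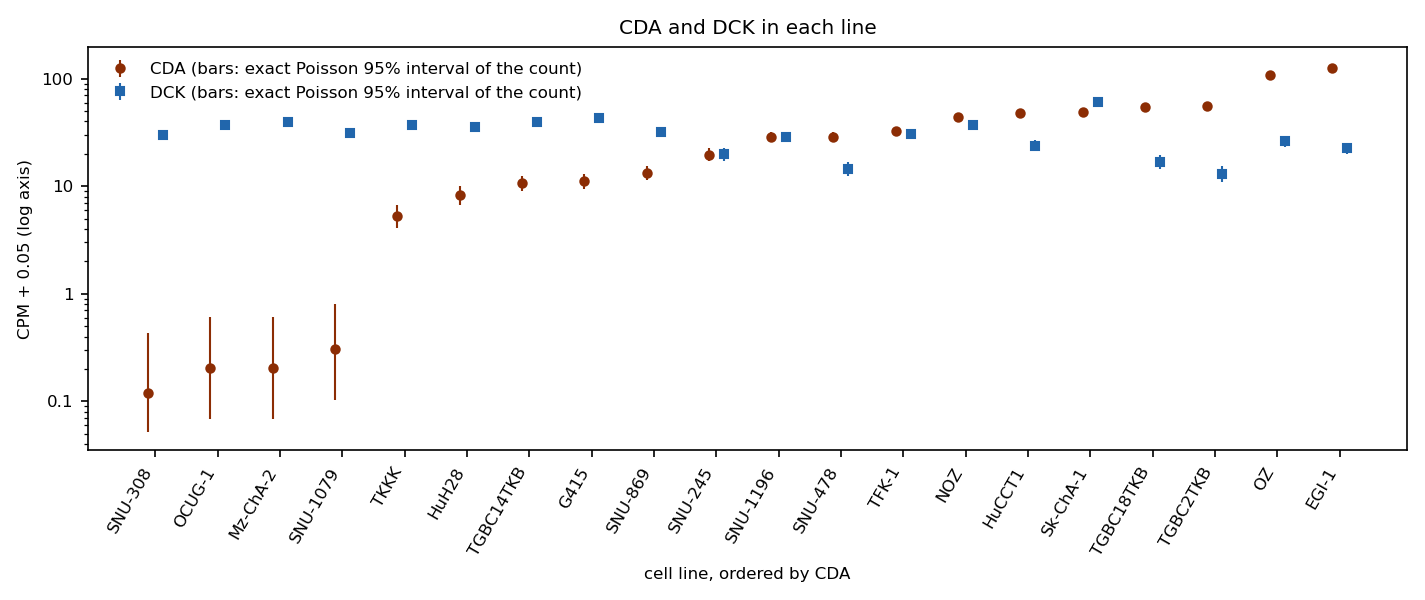
CDA and DCK in each of the 20 lines (CPM + 0.05, log axis), ordered by CDA; bars are exact Poisson 95% intervals of the count. CDA runs from 1 to 3 counts in the 4 lines at the left to 126 CPM in EGI-1, while DCK stays between 13 and 60.1 CPM; levels of the 2 genes are not length-corrected and are not compared with each other.

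DCTD, dCMP deaminase, varied least of the 10 genes. It ran from 35.8 CPM in Mz-ChA-2 through a median of 69.1 to 142 in OZ, a ratio of 3.96. Its 4 highest lines were OZ, G415 (108), TGBC18TKB (107) and HuCCT1 (103), of which 3 were metastatic. NT5C2, a cytosolic 5'-nucleotidase, ran from 81.8 CPM in OCUG-1 and 86.3 in SNU-308 through a median of 155 to 398 in Mz-ChA-2. The line after Mz-ChA-2 was EGI-1 with 285 CPM, and among Gallbladder lines the next was G415 with 145.

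The count ratio of DCK to CDA sets activation against inactivation in 1 library, and only its differences between lines are read because neither count is per length. Over the 16 lines with CDA above the floor it ran from 0.178 in EGI-1 to 7.05 in TKKK, with a median of 0.971. Next to EGI-1 at the low end stood TGBC2TKB (0.232), OZ (0.239) and TGBC18TKB (0.310). After TKKK at the high end came HuH28 (4.32), G415 (3.87) and TGBC14TKB (3.68). Against the floor of 3 counts the ratio was 123 in SNU-1079, 147 in SNU-308, 159 in OCUG-1 and 170 in Mz-ChA-2, and these 4 values rest on 1 to 3 CDA counts. DCK and CDA correlated at r = −0.36 (rho = −0.52, n = 20 lines). This pair did not pass in either fit (limma adjusted p = 0.730 along DCK and 0.651 along CDA), and the ratio is a description with no test.

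The drug target genes RRM1 and RRM2 encode the large and the small subunit of ribonucleotide reductase, which makes deoxynucleotides, and RRM2 is expressed mainly in S phase. RRM1 in Gallbladder lines ran from 32.7 (TGBC2TKB) through a median of 157 to 284 CPM (NOZ). Extrahepatic lines had 204 CPM in EGI-1, 178 in TFK-1, 177 in Sk-ChA-1, 161 in SNU-1196 and 44.5 in SNU-245. Intrahepatic lines had 129 CPM in SNU-1079, 126 in HuH28, 105 in HuCCT1 and 27.4 in TKKK. SNU-245 and TKKK were therefore far below the other lines of their sites. Ampullary lines had 173 CPM in SNU-869, 124 in SNU-478 and 65.5 in TGBC18TKB, and OZ had 77.8.

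RRM2 ran in Gallbladder lines from 30.9 (TGBC2TKB) through a median of 181 to 405 CPM (NOZ). In the Extrahepatic lines it was 317 CPM in Sk-ChA-1, 290 in TFK-1, 144 in EGI-1, 130 in SNU-1196 and 127 in SNU-245. Intrahepatic values were 200 CPM in SNU-1079, 192 in HuCCT1, 86.8 in HuH28 and 46.2 in TKKK. NOZ and G415 were the 2 highest lines for both subunits, and TKKK and TGBC2TKB were among the 3 lowest for both. Ampullary lines had 260 CPM in SNU-869, 150 in SNU-478 and 29.5 in TGBC18TKB, and OZ had 256. The count ratio of RRM2 to RRM1 ran from 0.450 in TGBC18TKB to 3.29 in OZ and 2.85 in SNU-245, with a median of 1.47. RRM2 has 3 named pseudogenes (RRM2P2, RRM2P3 and RRM2P4), and a read-through gene model shares 1077 exon bases with it in GENCODE 29, so some of its reads may have been shared or dropped in counting.

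For adduct repair, ERCC1, the partner of the nuclease ERCC4 in excision and crosslink repair, ran from 34.0 CPM in TFK-1 through a median of 86.5 to 155 in HuH28. Low lines besides TFK-1 were SNU-869 (38.5), TKKK (43.7) and TGBC18TKB (44.9), and high lines besides HuH28 were NOZ (136), SNU-245 (116) and SNU-1196 (114). Relative to the mean, the standard deviation was smallest in Gallbladder lines among the 4 sites (98.2 ± 20.0 CPM, SD, n = 7). ERCC4 itself ran from 6.99 CPM in OZ to 23.2 in TGBC2TKB. POLR1G lies on the opposite strand and shares 1593 exon bases with ERCC1 in GENCODE 29. The kit marks strand, but no source used here states whether counting used it, and ERCC1 and POLR1G may share reads.

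**Figure D3:**
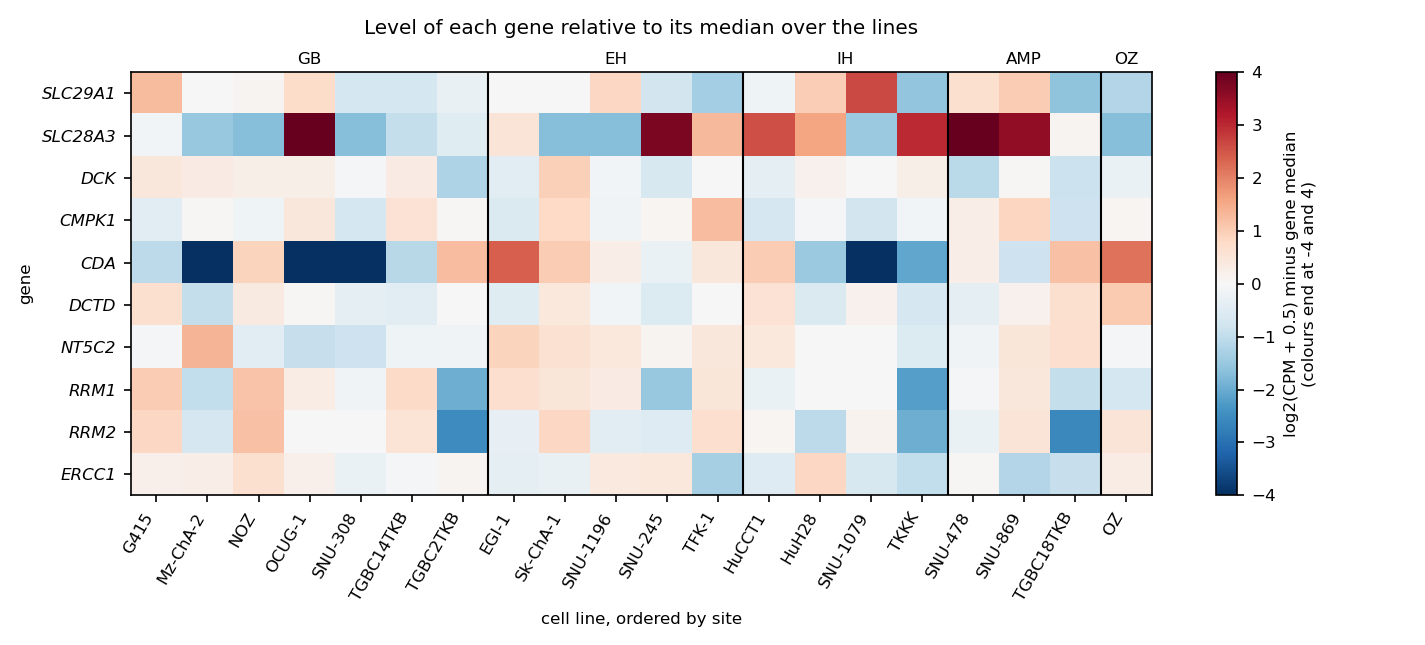
Each gene in each line as log2(CPM + 0.5) minus the median of that gene over the 20 lines; columns are ordered by site (GB, EH, IH, AMP and OZ) and colours end at −4 and 4. CDA is at the low end of the scale in Mz-ChA-2, OCUG-1, SNU-308 and SNU-1079, SLC28A3 is high in OCUG-1, SNU-245 and SNU-478, and RRM1 and RRM2 are both low in TGBC2TKB and TKKK.

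Several lines combined extremes of different steps, as the map of relative levels shows. SNU-1079 had the highest SLC29A1 (426 CPM) with CDA at the floor, and DCK near the median (31.3 CPM). OCUG-1 combined the highest SLC28A3 (80.5 CPM), SLC29A1 at 112 CPM, CDA at the floor and the lowest NT5C2 (81.8 CPM). Mz-ChA-2 also had CDA at the floor and the lowest DCTD (35.8 CPM), yet the highest NT5C2 (398 CPM). EGI-1 and TGBC2TKB went the other way for the deaminase and the kinase: EGI-1 had 126 CPM of CDA with 22.5 of DCK, and TGBC2TKB 56.1 with 13. TGBC2TKB also had the second lowest RRM1 and RRM2. These lines were singled out as the highest or lowest line of at least 1 gene, and each is 1 library without a replicate of its own.

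Site was tested first, since the labels divide the lines by subtype. In edgeR's quasi-likelihood test over the 4 sites none of the 10 genes passed (0 of 10 at an adjusted p under 0.05, and 0 at an unadjusted p under 0.05). The same test called 1 of 16615 genes, 0.00602%, and gave 10.7% of them an unadjusted p under 0.05. With each site set against the mean of the other 3, again 0 of 10 passed in any contrast, with 0 at an unadjusted p under 0.05. Over all genes those contrasts called 0.00602% (Ampullary), 0% (Extrahepatic), 0% (Gallbladder) and 0% (Intrahepatic). Unadjusted edgeR p was under 0.05 for 5.25% (Ampullary) to 12.3% (Gallbladder) of all genes. DESeq2 and limma-voom also called 0 of the 10 genes. Over all genes DESeq2 called 303 of 16615 by site and 133 to 382 per contrast. The counts for limma-voom were 0 by site and 0 to 8 per contrast. With such counts over all genes, a count of 0 among these 10 says nothing particular about them.

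In the Intrahepatic contrast SLC29A1 had the smallest p of the 10 genes, with a log2 difference of 1.07 (SE 0.564, edgeR adjusted p = 0.585). Intrahepatic lines averaged 161 ± 183 CPM (SD, n = 4), and without SNU-1079 the log2 difference was −0.08 (edgeR adjusted p = 0.986). The value therefore rested on that line; limma-voom with all lines gave 0.53. In the Ampullary contrast DCK had the smallest p, lower by a log2 difference of −0.63 (SE 0.377, edgeR adjusted p = 0.923), with 21.1 ± 9.59 CPM (SD, n = 3) against site means between 31.8 and 34.0 CPM. It was −1.05 without SNU-869 and −0.40 without SNU-478. CMPK1 in Extrahepatic lines (log2 difference 0.46, SE 0.306, edgeR adjusted p = 0.808) and ERCC1 in Gallbladder lines (0.46, SE 0.286, edgeR adjusted p = 0.538) were the genes of smallest p in the other contrasts. The CMPK1 difference was 0.15 without TFK-1 and 0.27 with repository as a covariate, and that of ERCC1 was 0.16 in primary lines only. None of these differences exceeded the spread between lines by the test.

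Origin gave the same count. For metastatic against primary lines edgeR called 0 of the 10 genes and 0% of 14843 genes. An unadjusted edgeR p under 0.05 was seen for 1 of the 10, DCTD, and for 7.73% of all genes. DCTD ran from 35.8 (Mz-ChA-2) through a median of 92.7 to 142 CPM (OZ) in 7 metastatic lines. In the 13 primary lines it ran from 43.1 (TKKK) through a median of 53.7 to 107 CPM (TGBC18TKB), so the groups overlapped and the lowest line of all was metastatic. The log2 difference was 0.56 (SE 0.222, edgeR adjusted p = 0.554). DCK (38.0 ± 12 against 27.0 ± 8.73 CPM, SD, edgeR adjusted p = 0.648) and RRM2 (254 ± 100 against 149 ± 87.7 CPM, SD, edgeR adjusted p = 0.676) were also higher on average in the 7 metastatic than in the 13 primary lines, within the spread between lines. DESeq2 and limma-voom called 0 of the 10 genes for origin, where over all 14843 genes they called 181 and 0.

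Repository, the nearest label to a batch, called 0 of the 10 genes and 0.00623% of 16051 genes in edgeR. In this test, and wherever repository was a covariate, the DSMZ and Zurich lines were merged into a single group. One of the 10 had an unadjusted edgeR p under 0.05, as did 9.04% of all genes. That gene was NT5C2, with edgeR adjusted p = 0.417. It averaged 318 CPM in the 2 Zurich lines and 249 in the 2 DSMZ lines, against 124 ± 33.7 (SD, n = 4) in HSRRB lines. KCLB (162 ± 48.1, n = 6) and RIKEN lines (163 ± 51.6, n = 6) lay between these values. DESeq2 and limma-voom called 0 of the 10 genes here too, where over all 16051 genes they called 221 and 0.

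Biliary tract cancer lines range from epithelial to mesenchymal in character, and the 10 genes were set against a score of this. The score is the mean log2 CPM of 22 epithelial genes minus that of 20 mesenchymal genes, each centred on its mean over the lines. The mesenchymal list held 22 genes, of which 20 passed the filter on low counts. HuH28 had the lowest score (−12.17) and SNU-245 the highest (5.18). In limma 0 of the 10 genes passed along this score, where 8.24% of 16573 genes passed. At an unadjusted limma p under 0.05 there were 2 of the 10, against 22.4% of all genes. SLC29A1 was higher toward the mesenchymal end (r = −0.55, rho = −0.55, n = 20, limma adjusted p = 0.0738). Its r was −0.62 without HuH28 and TGBC2TKB, −0.83 within KCLB and −0.78 within RIKEN lines. With repository as a covariate the limma adjusted p of SLC29A1 was 0.0128, and without SNU-1196 it was 0.0484. It was 0.115 with log2 total counts as a covariate and 0.177 without HuH28 and SNU-245. ERCC1 was the second gene (r = −0.47, rho = −0.33, limma adjusted p = 0.175), with r of opposite sign within KCLB (0.47) and RIKEN lines (−0.78).

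A proliferation score, the centred mean log2 CPM of 32 cell cycle genes that include neither RRM1 nor RRM2, was the score along which some of these genes passed. RRM1 (r = 0.89, rho = 0.80, limma adjusted p = 0.000107) and RRM2 (r = 0.77, rho = 0.68, limma adjusted p = 0.00458) rose with the score, which makes 2 of the 10 genes against 2.77% of 16583 genes. Without TKKK and TGBC2TKB, the 2 lowest lines of the score, r was 0.80 for RRM1 and 0.63 for RRM2. Within the 6 KCLB lines r was 0.90 and 0.34, and within the 6 RIKEN lines 0.96 and 0.82. TKKK had the lowest score (−2.01), followed by TGBC2TKB (−1.20), and G415 (1.09) and NOZ (0.95) had the highest.

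Sequencing depth moved with the same lines. Over the 20 lines log2 total counts correlated with the proliferation score (r = 0.66, rho = 0.72), with RRM1 (r = 0.68, rho = 0.72), DCK (r = 0.63, rho = 0.60) and RRM2 (r = 0.55, rho = 0.59). With log2 total counts as a covariate RRM1 still passed along the score (limma adjusted p = 0.0132) and RRM2 did not (0.112). Without TKKK and TGBC2TKB the values were 0.0484 and 0.182. Both settings were added after the data were seen, and the part of depth in the relation was not tested further.

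**Figure D4:**
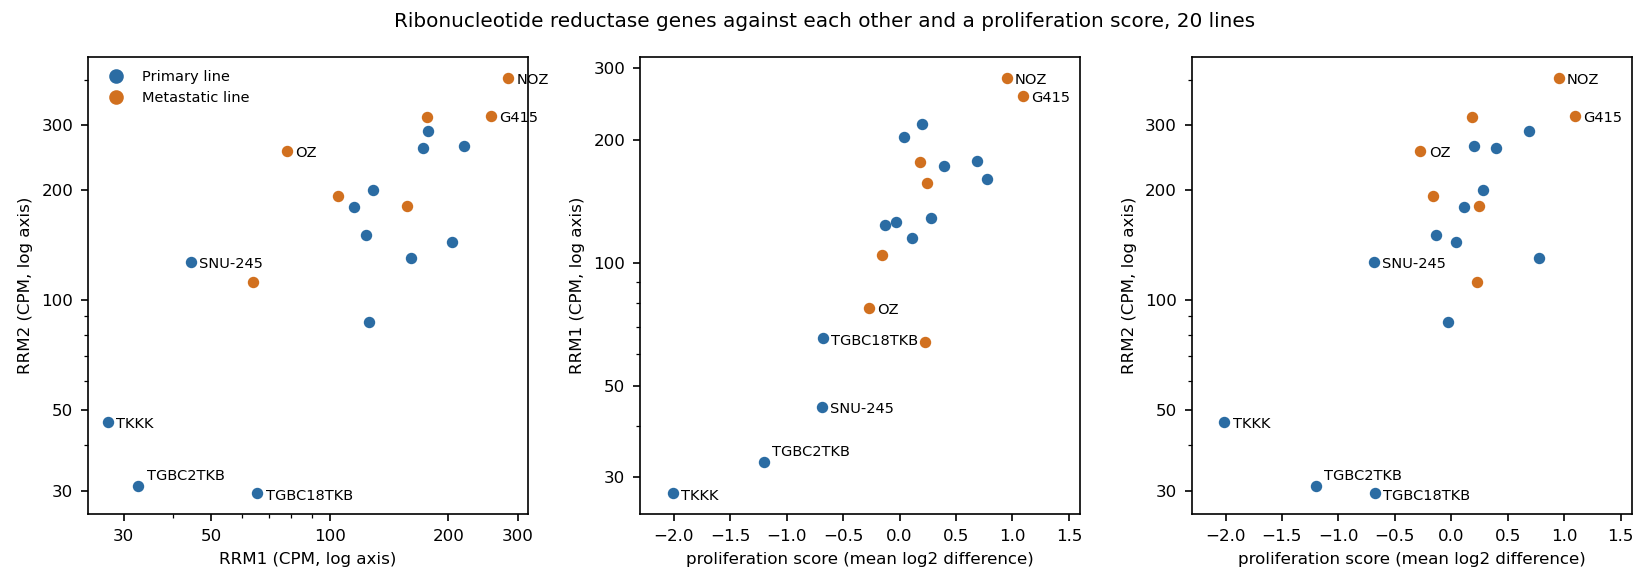
RRM2 against RRM1 (both CPM, log axes; left), and RRM1 (middle) and RRM2 (right; CPM, log axis) against the proliferation score (mean centred log2 CPM of 32 genes); each point is 1 of 20 lines, coloured by origin. TKKK and TGBC2TKB lie at the low end of all 3 panels and NOZ and G415 at the high end, and OZ and SNU-245 have more RRM2 than other lines with their RRM1.

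Of the 45 pairs among the 10 genes, 1 passed: RRM1 and RRM2. They correlated at r = 0.78 (rho = 0.78, n = 20 lines), and the limma adjusted p over all genes was 0.00665 in the fit on RRM1 and 0.0176 in the fit on RRM2. Those fits called 1.66% and 0.457% of 16614 genes. Without TKKK and TGBC2TKB r was 0.63, within KCLB lines 0.54 and within RIKEN lines 0.89. The pair no longer passed without TKKK (limma adjusted p 0.0494 and 0.0777), without TGBC2TKB (0.0282 and 0.0927), with repository as a covariate (0.0321 and 0.0944) or with log2 total counts as a covariate (0.182 and 0.299). The pair next in size was DCK and RRM2 (r = 0.56, rho = 0.49), with limma adjusted p = 0.596 and 0.240.

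None of the other genes passed in the fits on single genes. Of all genes tested the fits on SLC29A1, SLC28A3, DCK and CMPK1 called 0% each. At an unadjusted limma p under 0.05 there were 1 (RRM1), 0, 2 (RRM1 and RRM2) and 0 of the other 9 genes. Of all genes, 11.6%, 3.78%, 7.1% and 4.94% were under it in these fits. The fit on CDA called 0.00602%, on DCTD 0.012%, on NT5C2 0.00602% and on ERCC1 0.0301%. In each, 0 of the other 9 genes had an unadjusted limma p under 0.05, against 9.37%, 9.43%, 6.21% and 10% of all genes. The 2 transporters correlated at r = 0.00 (rho = 0.03) and RRM1 with ERCC1 at r = 0.08. CDA and DCTD, both deaminases, correlated at r = 0.40 (rho = 0.44; limma adjusted p = 0.588 and 0.547).

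**Figure D5:**
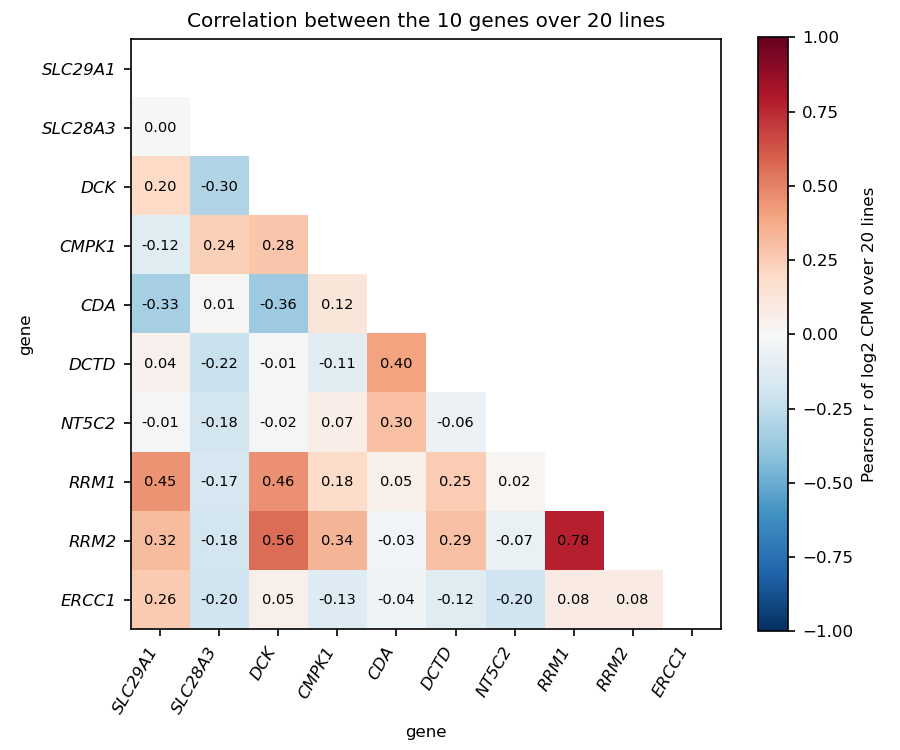
Pearson r of log2 CPM over the 20 lines for each of the 45 pairs of genes, printed in each cell. RRM1 with RRM2 (0.78) is the largest, DCK with RRM2 (0.56) and DCK with RRM1 (0.46) follow, and DCK with CDA is −0.36.

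Genes with the pattern most like each of the 10 were listed by Pearson r of log2 CPM over the 20 lines. RRM1 was nearest to SPC24 (r = 0.89), ASF1B (0.87) and ZWINT (0.87), each with limma adjusted p = 0.00222. RRM2 was nearest to SPC25 (0.88), DSCC1 (0.88) and again ASF1B (0.87), each with limma adjusted p = 0.00211. ERCC1 was nearest to POLR1G (0.85) and NOSIP (0.83), both with limma adjusted p = 0.0397, and was opposite to CCDC47 (−0.84, same adjusted p); POLR1G is the gene that overlaps it. For NT5C2 the nearest gene was GSDMB (0.83, limma adjusted p = 0.0280). CDA was opposite to RTL8B (−0.87, limma adjusted p = 0.00712) and DCTD to ZNF470 (−0.82, limma adjusted p = 0.0332).

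For the other genes no such likeness passed. DCK was nearest to MED22 (r = 0.89, limma adjusted p = 0.104), CMPK1 to SNU13 (0.82, 0.234), SLC29A1 to ESYT1 (0.81, 0.129) and SLC28A3 to SDF2L1 (0.76, 0.581). NT5C2 and CNNM2, which share 1892 exon bases on opposite strands, correlated at r = 0.04. DCK and MOB1B, which share 199 exon bases on the same strand, correlated at r = 0.18.

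The wider pathways were read from 7 lists. They hold 9 other nucleoside transporters and exporters, 15 kinases and other activating enzymes, 17 nucleotidases and nucleotide pool enzymes, 23 genes of platinum transport and binding, 22 of nucleotide excision repair, 27 of crosslink and other repair and 11 of replication stress. Of these, 8, 14, 14, 22, 21, 27 and 11 were tested by site, and edgeR called 0 in each list, as it did by origin and by repository. The list medians of the log2 differences lay between −0.41 and 0.42 over the 4 site contrasts and between −0.39 and 0.26 for origin, where the medians of all genes lay between −0.10 and 0.11 and at −0.02. The list gene of smallest p was XPC, which recognises damage in excision repair, in the Ampullary (log2 difference −0.85, edgeR adjusted p = 0.902) and Intrahepatic contrasts (0.70, edgeR adjusted p = 0.292). For Extrahepatic lines it was the exporter ABCG2 (2.52, edgeR adjusted p = 0.560) and for Gallbladder lines GCLM, of glutathione synthesis (edgeR adjusted p = 0.237). For origin it was FANCG of the Fanconi core complex (0.91, edgeR adjusted p = 0.454).

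Along the proliferation score, which also moved with depth (r = 0.66), 2.77% of 16583 genes passed. This fit called 460 genes in all, but 107 with log2 total counts as a covariate and 26 without TKKK and TGBC2TKB. Of 27 crosslink repair genes 7 rose and 0 fell, with a median r of 0.60 over the list against −0.04 over all genes. Among them was FANCI (r = 0.90, limma adjusted p = 0.000151), part of the clamp that marks crosslinks. Of 11 replication stress genes 5 rose and 0 fell (median r 0.67), among them CLSPN (0.90, limma adjusted p = 6.2e-05), the adaptor that activates the checkpoint kinase CHEK1. In the other lists DTYMK (0.80), CTPS1 (0.74) and RPA1 (0.70) rose and GSTM1 (−0.69) fell, 1 gene per list. No nucleoside transporter in the list passed (0 of 8). TKKK, the line of lowest score, had the lowest FANCI, CLSPN, CTPS1 and DTYMK.

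Along RRM1 itself 25 of 32 proliferation genes, 5 of 27 crosslink repair genes and 4 of 11 replication stress genes rose in limma, with median r of 0.76, 0.51 and 0.60, where 1.66% of all genes passed. This fit called 276 genes in all, but 43 without TKKK, 419 without EGI-1, 4 with log2 total counts as a covariate and 0 without TKKK and TGBC2TKB. In the list of nucleotidases and pools CTPS1 (r = 0.78), SAMHD1 (0.75) and TYMS (0.69) rose, 3 of 14. TYMS is also among the 32 proliferation genes, so it counts in both lists. ATP7B (−0.67), a copper exporter that also carries platinum, fell. Along RRM2 fewer genes passed: 5 of 32 proliferation genes, led by CDK1 (r = 0.85), 1 of 27 crosslink repair genes (FANCI, 0.83) and 2 of 11 replication stress genes, where 0.457% of all genes passed. This fit called 76 genes in all, but 8 without TGBC2TKB, 14 without TKKK, 41 without NOZ or without TFK-1, 45 without G415, 50 without TGBC18TKB, 148 without OZ, 9 with repository as a covariate, and 0 with log2 total counts as a covariate or without TKKK and TGBC2TKB. SAMHD1, which hydrolyses deoxynucleotide triphosphates, ran from 4.04 CPM in TKKK to 109 in TFK-1.

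Along the epithelial score few genes of the drug handling lists passed: 2 of 8 transporters, 1 of 14 activating enzymes, 0 of 14 nucleotidases and pool enzymes, 1 of 22 platinum transport genes, 3 of 21 excision repair genes, 2 of 27 crosslink repair genes and 0 of 11 replication stress genes. Over all genes 8.24% passed, so nothing particular to these lists is read from the counts. SLC29A2 (r = 0.78, limma adjusted p = 0.00127), CMPK2 (0.63, 0.0246), GSTP1 (0.64, 0.0226) and FANCF (0.77, 0.00454) rose toward the epithelial end. ABCC4 (−0.62, limma adjusted p = 0.0291) and the excision repair genes ERCC2 (−0.72, 0.00774), RPA1 (−0.65, 0.0309) and GTF2H2 (−0.68, 0.0376) fell. SLC29A2 and SLC29A1 thus had r of opposite sign along the score, with only the former passing, and the difference between them was not tested.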

How the data were processed

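Raw counts of reads per gene were deposited by the authors as 1 table of whole numbers, with 1 column per line and no normalization. Per the submitters' processing notes, reads were trimmed, aligned to hg19 (GRCh37) and counted with tools that include TopHat2 2.0.8, Trimmomatic, featureCounts and Picard 1.69. Whether counting used strand, and which annotation it used, is not stated in the sources used here.

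Entries are RefSeq identifiers. A RefSeq table gave symbols for 23200 and GENCODE 29 for 351, and 671 without a symbol held 1.53% of all counts. Of 220 list genes 218 were matched. Coordinates and sequences are RefSeq's on GRCh38.p14 and were not joined to the reads. The 10 genes, the lists, the tests and the rule for named genes were chosen with earlier results of these data known. That rule takes all 10 genes, per contrast the gene of smallest p, pairs called in both fits, the 3 most alike genes and the most opposite one for each of the 10 genes, and up to 4 called genes per list; some genes that met it are not reported here.

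Groups were tested with quasi-likelihood F tests of edgeR 4.0.16 (R 4.3.3; robust, TMM scaling, filterByExpr), and relations to scores or to 1 gene with limma 3.58.1 (trend, robust) on log2 CPM with prior count 2. Tests are two-sided with Benjamini-Hochberg adjustment over all genes, and a call is an adjusted p under 0.05. Both procedures were tested on simulated data, but no outcome of that is given here, so nothing is read from it. Alternatives included RLE scaling, DESeq2 1.42.0, limma-voom, no filter, other covariates and leaving out each line. Each p weighs a group difference or a slope against the spread between lines, and totals of 10.47 M to 15.41 M (M, mega) counts set the precision of single values.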

Additional observations from a re-analysis of the deposited data

Results flagged for a closer look

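For each of the 10 genes the Gallbladder, Extrahepatic, Intrahepatic and metastatic lines were checked on the log2 scale for a highest or lowest line far from the rest (Dixon test). Of 40 such groups 5 had one. Chance gives about 1 in 20 where the groups are independent and the log2 values normal. The metastatic lines except OZ also sit in the site groups, and SLC28A3 is near the floor in many lines. No excess over chance is therefore read from this count. In Gallbladder lines SLC28A3 was 80.5 CPM in OCUG-1, where the next line had 1.03. DCK was 13 CPM in TGBC2TKB, where the next lowest Gallbladder line had 30.0. NT5C2 was 398 CPM in Mz-ChA-2, with 145 in the next Gallbladder line, and Mz-ChA-2 is also the line with the highest sum of hepatocyte markers (5270 CPM). RRM1 was 44.5 CPM in SNU-245, lowest of the Extrahepatic lines, with 161 in the next one. RRM1 was also 27.4 CPM in TKKK, lowest of the Intrahepatic lines, with 105 in the next. SNU-245 (10.47 M counts, M for mega) and TKKK (11.49 M) were below the median depth of 12.49 M. Their proliferation scores, with which RRM1 rose over the lines, were −0.69 and −2.01. The part of depth or of the score in these 2 values was not tested.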

How the results depend on the processing

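Over 335 alternative values, 325 kept their direction and their side of the threshold, or for a count stayed near it, and 10 did not. For many values this says little. By site, origin and repository edgeR called 0 or 1 of all genes, and the log2 differences were far from the threshold. By site, origin and repository 0 of the 10 genes passed under every alternative run, each line left out included. Along the epithelial minus mesenchymal score 1 gene, SLC29A1, passed with repository as a covariate, and leaving out each line gave 0 to 1, the 1 without SNU-1196. Along the proliferation score 2 genes passed under the other alternatives and without each line, and 1, RRM1, with log2 total counts as a covariate or without TKKK and TGBC2TKB. Of the pairs 0 passed with repository or log2 total counts as a covariate or without TKKK and TGBC2TKB, and leaving out each line gave 0 to 1, with 0 without TKKK or without TGBC2TKB. The Intrahepatic log2 difference of SLC29A1 was −0.078 without SNU-1079, −0.078 to 1.397 over all lines left out in turn, and 0.53 to 1.57 under the other settings. The fits with log2 total counts and without TKKK and TGBC2TKB were chosen after seeing the data. Over all genes DESeq2 called 303 by site, 133 (Ampullary), 182 (Extrahepatic), 382 (Gallbladder) and 264 (Intrahepatic) per contrast, 181 by origin and 221 by repository, where edgeR called 0 or 1; limma-voom called 0 to 8. Genes along the proliferation score numbered 460, but 107 with log2 total counts as a covariate and 26 without TKKK and TGBC2TKB. Those along the epithelial score numbered 1366, but 901 with repository as a covariate and 418 without HuH28 and SNU-245. The cause of these changes was not tested. No paired analysis was possible because the replicate numbers are only deposition order and each line is 1 library. Values near the floor of 3 counts, as for CDA and SLC28A3, carry wide intervals.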
